A study of Fragaria vesca with 12 samples.

Results

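Actin genes were followed in ripe strawberries (*Fragaria vesca*, Mara des Bois) before and after storage. The family was taken as the 6 genes that the deposited table describes as actin 3, actin 7 or actin-11, out of 34008 genes: FvH4_1g23490 and FvH4_5g10190 (actin 7), FvH4_6g13940 (actin 3), and FvH4_3g35960, FvH4_6g22300 and FvH4_7g22410 (actin-11). All 6 genes passed the filter on low values (0.5 RPKM in at least 3 of the 6 libraries of a comparison) in all 6 comparisons. RPKM, the unit of the deposited values, corrects the reads of a gene for its length and for the total of the library. The storage study compared 4 conditions with 3 RNA-Seq libraries each, and its methods describe every library as a mixture of many fruits. AH fruit, the control, was sampled 2 h after harvest. NCS fruit was not cold stored and spent 2 days at 20°C, at a relative humidity of 80%. ACS fruit spent 7 days at 1°C in air, followed by 1 day at 20°C. CCS fruit spent the same 7 days at 1°C, 2 of them under a mixture of 18% CO2, 18% O2 and 64% N2 and the other 5 in air, followed by 1 day at 20°C. ACS and CCS fruit were each kept in a single container, so the gas treatment and the container cannot be told apart. NCS and cold-stored fruit differ in storage temperature and in time since harvest, which cannot be told apart either. The p-values measure the spread between libraries within a condition.

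Actin is the protein subunit of microfilaments, which polymerise from monomers and carry organelles and vesicles through plant cells, including vesicles that bring wall material to the cell surface. Plants encode actin in several genes with nearly the same coding sequence. In Arabidopsis, actin 7 belongs to the vegetative class, which is active in most growing tissues, and actin 3 and actin 11 belong to the reproductive class, which is active in pollen and ovules. Because actin is found in every cell, actin genes are often used as the internal reference of quantitative PCR. In this study FvH4_7g22410, named Actin-97-like in the methods, had that role.

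The primer pair of that reference is shown because every qPCR fold change of the study is relative to the product that it amplifies. Both primers are listed for FvH4_7g22410 in the study's supplementary primer table, and lower case is used throughout because no base is singled out.
FvACT_F: gggtttgctggagatgatg
FvACT_R: cacgattggccttgggattc
The forward primer has 19 bases, of which 52.6% are G or C, and the reverse primer has 20 bases, of which 55% are G or C. The match of either primer to the other 5 actin genes was not analysed here. The study states that it sequenced its qPCR amplicons to check specificity. It chose this actin because its expression varied less over developmental stages than that of other reference genes. The second description column of the table, from the PLAZA database, calls FvH4_7g22410 similar to a DNA-directed RNA polymerase subunit beta, whereas it calls FvH4_1g23490 Actin-7, FvH4_3g35960 Actin-1 and FvH4_6g22300 Actin.

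The recovered library sizes were 64.2 to 119.9 M (mega) reads, of which 94.0 to 95.9% lay on genes. FvH4_1g23490 received 162445 to 394201 reads per library and FvH4_3g35960, the weakest gene, 179 to 807. Counting error alone is at least 7.47% at the lowest number. That value takes each read as independent, whereas the libraries were sequenced as read pairs. The counting was not strand-specific, so reads of a gene and of an antisense partner cannot be told apart. The reads were short and the sources used here do not say how reads that match several actin genes were counted, so the split of reads among the 6 genes is uncertain. Receptacle markers were chalcone synthase, anthocyanidin synthase, expansin A and polygalacturonase genes. Achene markers were oleosin, seed storage protein and late embryogenesis abundant protein genes. The summed level of the 38 receptacle marker genes was 4076 to 4605 RPKM in AH, and 3254 to 3449, 2836 to 3002 and 3505 to 3755 in NCS, ACS and CCS, respectively, and 15 of them were detected. That of the 43 achene (seed) marker genes, such as oleosins, was 4436 to 5688 in AH, and 1806 to 2299, 3185 to 5841 and 1775 to 4723 in NCS, ACS and CCS, respectively, and 27 were detected, with a mean of at least 0.5 RPKM. The receptacle markers moved both ways against AH, with 3 higher and 10 lower of 15 tested in NCS, 3 higher and 9 lower in ACS, and 4 higher and 5 lower in CCS. Of the achene markers 0 were higher and 23 lower of 26 tested in NCS, 1 higher and 5 lower of 27 in ACS, and 2 higher and 3 lower of 28 in CCS. Of all genes tested, 14.7, 21.9 and 23.6% were higher and 21.4, 20.9 and 13.9% lower in NCS, ACS and CCS, respectively. The lower achene counts in ACS and CCS lay near these shares, and that in NCS lay above. In the receptacle list and in the achene list 2 genes each were at 0 in all libraries. The study reports expansin A4 and a late embryogenesis abundant gene as raised by CO2 treatment, so the sums may not follow tissue content alone. The part of either tissue's share in the actin levels was not tested, and in whole fruit fewer cells of a type and less RNA per cell cannot be told apart.

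FvH4_1g23490 supplied most of the actin RNA in all 12 libraries. Its share of the summed RPKM of the 6 genes was 87.9% in AH, and 88.4%, 88.1% and 88.0% in NCS, ACS and CCS, respectively. The sum itself was 1309 ± 75.6 RPKM in AH (SD, n = 3), and 1098 ± 27.5, 1015 ± 46.6 and 1074 ± 19.8 in NCS, ACS and CCS, respectively. Per kilobase, FvH4_6g13940 and FvH4_5g10190 came next at levels that overlapped in AH. They were followed by FvH4_7g22410, FvH4_6g22300 and FvH4_3g35960, in that order and without overlap in all 4 conditions.

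**Figure D1:**
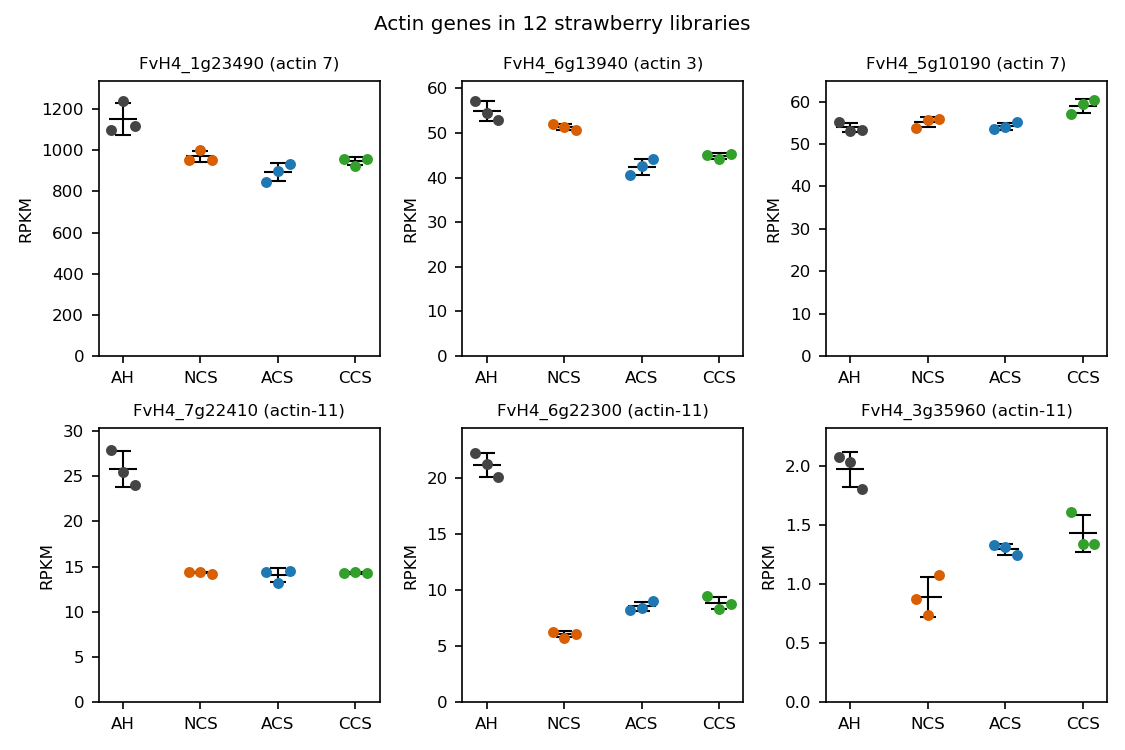
RPKM (vertical axis, starting at 0, with a separate scale in each panel) of the 6 actin genes in the 12 libraries. Points are libraries and bars are the mean ± SD of the 3 libraries of each condition; FvH4_5g10190 stays between 53.2 and 60.4 RPKM, while FvH4_7g22410 and FvH4_6g22300 are higher in every AH library than in any stored library.

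After harvest the 3 genes described as actin-11 fell under every storage condition, the actin 3 gene and the abundant actin 7 gene fell slightly after cold storage, and FvH4_5g10190 did not pass the test in any comparison. In AH vs. NCS, 3 of 6 genes were called lower and 0 higher (limma with Benjamini-Hochberg adjustment, threshold 0.05), where 21.4% of all 16092 genes tested were lower and 14.7% higher. In AH vs. ACS 5 of 6 were lower and 0 higher, beside 20.9% lower and 21.9% higher of all genes tested. In AH vs. CCS 5 of 6 were lower and 0 higher, beside 13.9% and 23.6%. The AH libraries did not overlap the stored libraries for 5 of 6 genes in NCS, 5 in ACS and 6 in CCS, as for 51.5, 55.0 and 51.7% of all genes tested. The median log2 fold change of the 6 genes was -0.54 in NCS, -0.47 in ACS and -0.36 in CCS, and that of all genes tested was -0.07, 0.01 and 0.07. FvH4_6g22300 in NCS was the only one of the 6 that passed the stricter DEG rule, which also asks for a log2 change of 1.5 or more. Of all genes tested, 2.36, 1.40 and 1.15% passed it downwards in NCS, ACS and CCS. The 3 comparisons share the AH libraries. The AH vs. CCS count rests on individual libraries: it was 2 without AH replicate 2, without CCS replicate 2 or without CCS replicate 3, and 3 without CCS replicate 1.

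**Figure D2:**
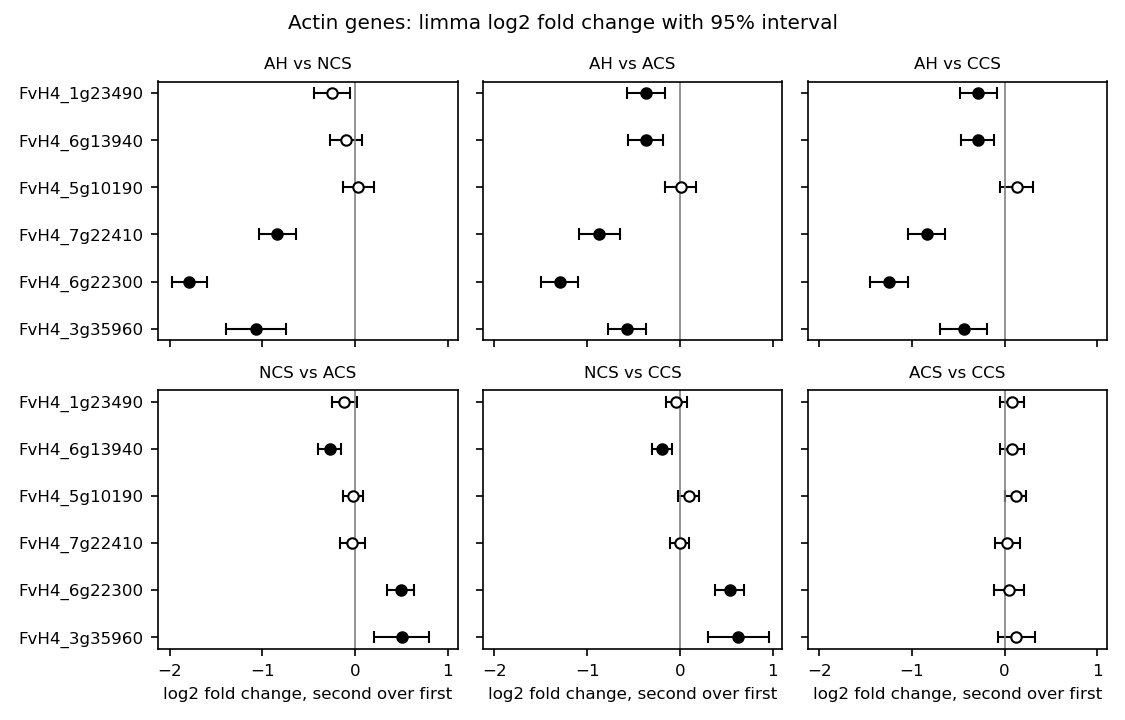
Log2 fold change (horizontal axis, second condition over first, on the log2(RPKM + 0.1) scale) of the 6 actin genes in the 6 comparisons, with 95% intervals from limma. Filled points have an adjusted p of 0.05 or less and open points do not; against AH, the intervals of FvH4_5g10190 include 0 and those of the 3 actin-11 genes lie below 0.

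FvH4_5g10190, one of the vegetative-type actin 7 genes, was the steadiest member. It was at 55.3, 53.2 and 53.3 RPKM in the AH libraries and at 53.9, 55.7 and 55.9 in NCS. It was at 53.5, 54.0 and 55.2 RPKM in ACS and at 57.1, 59.6 and 60.4 in CCS. The AH libraries overlapped those of NCS and ACS, whereas all CCS libraries lay above all others. Against AH the log2 fold change was 0.03 in NCS (95% interval -0.13 to 0.20), 0.01 in ACS (-0.16 to 0.18) and 0.13 in CCS (-0.04 to 0.30). The adjusted p of limma was 0.765, 0.943 and 0.213. The place of CCS depended on the scaling. With median-of-ratios scaling of the libraries, CCS was at a log2 of 0.02 over AH and -0.08 over NCS, and neither passed the test. On the unscaled values, the SD of FvH4_5g10190 over the 12 libraries was 0.06 on the log2 scale. That is percentile 0.426 among the 17152 genes with at least 0.5 RPKM in 3 libraries, and the median gene had an SD of 0.25.

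FvH4_1g23490, the other actin 7 gene and the most abundant, was at 1097, 1239 and 1117 RPKM in AH. It was at 954, 1001 and 954 RPKM in NCS, at 848, 900 and 935 in ACS and at 958, 924 and 956 in CCS. Every stored library was below every AH library. The log2 fold change against AH was -0.36 in ACS (SE 0.09, adjusted p = 0.0149 by limma) and -0.28 in CCS (SE 0.08, adjusted p = 0.0353). In NCS it was -0.25 (SE 0.08), with an adjusted p of 0.0562 that did not pass the threshold. These small differences depended on single libraries. The adjusted p in ACS was 0.0602 without AH replicate 2, 0.0592 without ACS replicate 1 and 0.0591 without ACS replicate 2. In CCS it was above 0.05 without any one of AH replicates 2 and 3 and the 3 CCS replicates, up to 0.129 without CCS replicate 2. In NCS it was 0.0256 without AH replicate 1.

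FvH4_6g13940, the actin 3 gene, separated NCS fruit from cold-stored fruit, which also differ in time since harvest. It was at 57.2, 54.5 and 52.8 RPKM in AH and at 52.0, 51.4 and 50.6 in NCS. It was at 40.6, 42.5 and 44.2 RPKM in ACS and at 45.1, 44.1 and 45.4 in CCS. The cold-stored libraries were all below the NCS libraries, which were all below the AH libraries. The log2 fold change against AH was -0.09 in NCS (95% interval -0.27 to 0.08, adjusted p = 0.367 by limma), -0.37 in ACS (adjusted p = 0.00903) and -0.29 in CCS (adjusted p = 0.0223). Against NCS it fell by 0.27 in ACS (SE 0.05, adjusted p = 0.00575) and by 0.19 in CCS (SE 0.04, adjusted p = 0.0106). The AH vs. CCS call was lost without AH replicate 2 (adjusted p = 0.0750), CCS replicate 1 (0.0694), CCS replicate 2 (0.0950) or CCS replicate 3 (0.0766).

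FvH4_7g22410, the qPCR reference, stood at one level at harvest and at another in all stored fruit. It was at 27.9, 25.5 and 24.0 RPKM in AH. It was at 14.4, 14.4 and 14.2 RPKM in NCS, at 14.4, 13.2 and 14.6 in ACS and at 14.2, 14.4 and 14.3 in CCS. The lowest AH library was above the highest stored library, and the stored conditions overlapped one another. The log2 fold change against AH was -0.84 in NCS (SE 0.08, adjusted p = 0.000316 by limma), -0.87 in ACS (SE 0.09, adjusted p = 0.000372) and -0.84 in CCS (SE 0.08, adjusted p = 0.000374), and these calls were kept under every alternative run. The stored means were 55.7, 54.5 and 55.6% of the AH mean. Between stored conditions the log2 differences were -0.03 for ACS over NCS (95% interval -0.17 to 0.10), 0.00 for CCS over NCS (-0.10 to 0.10) and 0.03 for CCS over ACS (-0.11 to 0.16), none of which passed the test. With median-of-ratios scaling of the libraries, CCS was lower than NCS by a log2 of -0.18 (adjusted p = 0.0180). Its SD over the 12 libraries, 0.39, is percentile 72.1 among the genes compared.

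FvH4_6g22300, described as actin-11, fell most. It was at 22.2, 21.2 and 20.1 RPKM in AH and at 6.31, 5.79 and 6.09 in NCS. It was at 8.22, 8.43 and 9.03 RPKM in ACS and at 9.47, 8.37 and 8.76 in CCS. The AH, NCS and cold-stored libraries formed levels that did not overlap, with NCS lowest. The gene was 3.45-fold lower than in AH in NCS (log2 -1.79, SE 0.08, adjusted p = 1.04e-05 by limma). It was 2.46-fold lower in ACS (log2 -1.30, SE 0.08, adjusted p = 3.52e-05) and 2.37-fold lower in CCS (log2 -1.25, SE 0.09, adjusted p = 6.89e-05). The summed level of 24 genes described as pollen allergen, pollen-specific or pollen Ole e 1 proteins was at 93.5 to 114 RPKM in AH, and 31.9 to 35.9, 52.1 to 53.8 and 50.3 to 56.6 in NCS, ACS and CCS, respectively. Its members did not move as one. Against AH 0 were higher and 4 lower of 5 tested in NCS, 1 higher and 4 lower of 6 in ACS, and 2 higher and 4 lower of 7 in CCS. Of all genes tested, 14.7, 21.9 and 23.6% were higher and 21.4, 20.9 and 13.9% lower. ACS against NCS had 2 higher and 2 lower of 6, beside 30.9% and 17.1% of all genes tested. Of the pollen list 6 genes were detected and 2 were at 0 in all libraries, and its part in the level of FvH4_6g22300 was not tested.

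FvH4_3g35960, the third gene described as actin-11, followed a like order at a low level. It was at 2.07, 2.03 and 1.80 RPKM in AH and at 0.872, 0.737 and 1.07 in NCS. It was at 1.33, 1.31 and 1.24 RPKM in ACS and at 1.61, 1.34 and 1.34 in CCS. The AH libraries were above all stored libraries and the NCS libraries were below all others. The log2 fold change against AH was -1.07 in NCS (SE 0.14, adjusted p = 0.00104 by limma), -0.57 in ACS (SE 0.09, adjusted p = 0.00206) and -0.44 in CCS (SE 0.11, adjusted p = 0.0170). Because the gene lies near the pseudocount, fold changes on this scale understate its change. The CCS call was lost without AH replicate 2 (adjusted p = 0.0668), CCS replicate 2 (0.0724) or CCS replicate 3 (0.0679).

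Between the stored conditions, the actin-11 genes FvH4_6g22300 and FvH4_3g35960 were higher in cold-stored fruit than in NCS fruit, and the actin 3 gene was lower. In both NCS vs. ACS and NCS vs. CCS 3 of 6 genes passed the test, 2 higher and 1 lower. Of all genes tested, 30.9% were higher and 17.1% lower in NCS vs. ACS, and 37.6% were higher and 14.0% lower in NCS vs. CCS. FvH4_6g22300 rose by a log2 of 0.49 in ACS (SE 0.06, adjusted p = 0.00104 by limma) and 0.54 in CCS (SE 0.06, adjusted p = 0.000820) relative to NCS, where the median of all genes was 0.08 and 0.14. FvH4_3g35960 rose by 0.50 in ACS (SE 0.12, adjusted p = 0.0155) and 0.63 in CCS (SE 0.14, adjusted p = 0.00962). Median-of-ratios scaling moved the median of all genes to -0.03 and -0.04 in these comparisons and, in AH vs. CCS, from 0.07 to -0.03. It turned no called direction of the 6 genes, but FvH4_1g23490 was then also called lower in both comparisons (log2 -0.22 in ACS, adjusted p = 0.0336, and -0.21 in CCS, adjusted p = 0.0190, by limma) and FvH4_7g22410 in NCS vs. CCS. The counts under that scaling were 2 higher and 2 lower in NCS vs. ACS, and 2 higher and 3 lower in NCS vs. CCS. Of all genes tested under that scaling, 3759 were higher and 4189 lower of 16389 in NCS vs. ACS. In NCS vs. CCS 3521 were higher and 4578 lower of 16374.

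In ACS vs. CCS, the comparison that addresses the CO2 treatment, 0 of 6 actin genes passed the limma test, beside 28.7% of all 16680 genes tested (18.4% were higher). The log2 differences ranged from 0.03 for FvH4_7g22410 to 0.13 for FvH4_3g35960, and the median of all genes was 0.07. The nearest to the threshold was FvH4_5g10190, 0.12 higher in CCS (95% interval 0.01 to 0.24, adjusted p = 0.101 by limma). It was the 1 member with an unadjusted p under 0.05, beside 42.0% of all genes tested. Its ACS and CCS libraries did not overlap, nor did those of FvH4_3g35960. The share of all genes without overlap was not taken for this comparison. Voom on the recovered reads, which kept the library totals, called FvH4_5g10190, with an adjusted p of 0.0422. With median-of-ratios scaling the difference of FvH4_5g10190 was 0.05 (adjusted p = 0.578 by limma). For FvH4_6g22300 the interval of the difference was -0.11 to 0.21 and for FvH4_1g23490 it was -0.05 to 0.21.

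Ratios within a library do not depend on how the libraries were scaled to one another. The ratio of FvH4_7g22410 to FvH4_5g10190 was 0.449 to 0.504 in AH, and 0.255 to 0.268, 0.244 to 0.269 and 0.236 to 0.249 in NCS, ACS and CCS, respectively. The lowest AH ratio was thus above the highest stored ratio. Between the actin-11 genes, the ratio of FvH4_6g22300 to FvH4_7g22410 was 0.798 to 0.838 in AH, and 0.403 to 0.437, 0.570 to 0.641 and 0.580 to 0.665 in NCS, ACS and CCS, respectively. The 6 genes did not change in one proportion, although a ratio does not say which of its genes changed.

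**Figure D3:**
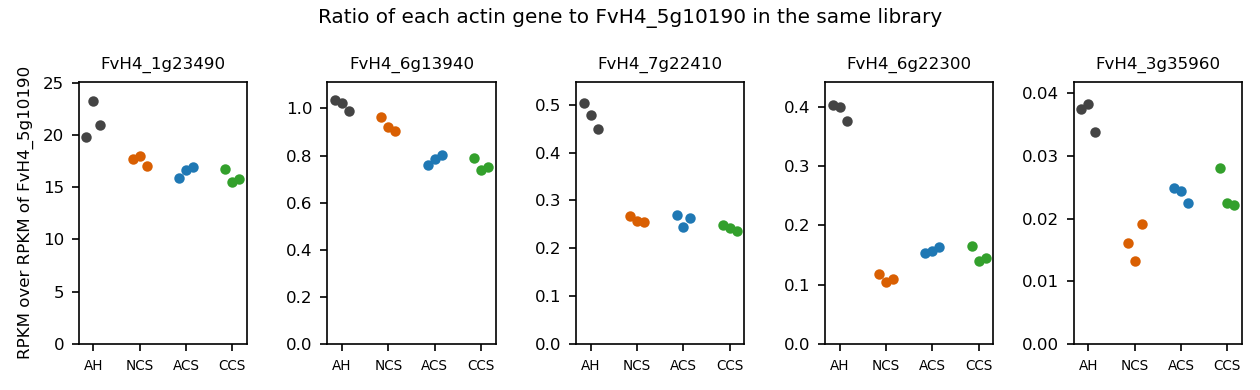
RPKM of each of 5 actin genes divided by the RPKM of FvH4_5g10190 in the same library (vertical axis from 0, no unit, separate scales). Points are the 12 libraries; in all 5 panels every AH point is above every stored point, and for FvH4_7g22410 the stored points lie between 0.236 and 0.269.

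Of 12 tested genes of monomer-binding proteins, 7 were lower and 0 higher in each stored condition against AH, where 21.4, 20.9 and 13.9% of all genes tested were lower in NCS, ACS and CCS. Their medians were -0.36, -0.54 and -0.34, and those of all genes were -0.07, 0.01 and 0.07. Under median-of-ratios scaling 5, 8 and 8 of 13 were lower and 0 higher. Of all genes, 2690 of 16185, 3599 of 16636 and 3023 of 16494 were then lower in NCS, ACS and CCS. Between stored conditions the list moved both ways, with 2 higher and 3 lower in NCS vs. ACS and 4 higher and 1 lower in NCS vs. CCS. Of all genes tested, 30.9% were higher and 17.1% lower in NCS vs. ACS, and 37.6% and 14.0% in NCS vs. CCS. The monomer-binding list holds profilins, which bind actin monomers and feed them to growing filaments, and actin depolymerizing factors, which sever and disassemble filaments. A profilin gene, FvH4_5g24490, fell from 17.6 ± 3.26 RPKM in AH (SD, n = 3) to 7.22 ± 0.662, 9.78 ± 0.412 and 10.5 ± 2.02 in NCS, ACS and CCS, respectively. Its log2 fold changes were -1.27 (adjusted p = 0.000625 by limma), -0.83 (0.00312) and -0.75 (0.0209). The profilin 5 genes FvH4_2g26231 and FvH4_6g32550 also fell in all 3 stored conditions, and the latter went from 3.73 ± 0.964 RPKM in AH to 1.65 ± 0.208 in NCS.

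Of 11 tested genes of nucleation proteins, which start new filaments, 2 were lower and 0 higher in NCS, and 5 were lower and 1 higher in ACS. In CCS 2 of 12 were lower and 0 higher. Under median-of-ratios scaling 4 were lower in CCS, beside 3023 of all 16494 genes tested. The counts in NCS and CCS without that scaling lay near the 21.4 and 13.9% of all genes tested that were lower. FvH4_1g00460, a formin, fell from 3.54 ± 0.231 RPKM in AH (SD, n = 3) to 2.18 ± 0.0711, 1.78 ± 0.132 and 2.22 ± 0.0835 in NCS, ACS and CCS, respectively, with adjusted p of 0.000804, 0.000246 and 0.00119 by limma. The formin gene FvH4_3g21670 was the 1 nucleation gene that rose in ACS (log2 0.53, adjusted p = 0.0427). Of 7 filament-binding genes, 0 passed in NCS, 1 rose and 1 fell in ACS, and 1 rose in CCS. Of all genes tested, 14.7, 21.9 and 23.6% were higher and 21.4, 20.9 and 13.9% lower in NCS, ACS and CCS. The filament-binding gene that rose was FvH4_6g41540, a fimbrin, which cross-links filaments into bundles. It was at 7.14 ± 0.449 RPKM in AH (SD, n = 3), and 7.21 ± 0.358, 14.2 ± 0.684 and 12.2 ± 0.203 in NCS, ACS and CCS, respectively. Its log2 fold change was 0.98 in ACS (adjusted p = 0.000156) and 0.76 in CCS (adjusted p = 0.000461). The gene that fell was FvH4_2g12750, a subunit of the capping protein that closes filament ends (log2 -0.57 in ACS, adjusted p = 0.0121). Of 5 myosin motor genes 0 passed in NCS and ACS and 1 in CCS, FvH4_3g21010, which rose (log2 0.54, adjusted p = 0.0176).

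Of 7 actin-related protein genes, whose products resemble actin and work in the ARP2/3 complex or in chromatin remodelling, 2 were lower in NCS, 2 were lower and 1 higher in ACS, and 1 was lower and 1 higher in CCS, shares near those of all genes tested (21.4, 20.9 and 13.9% lower). Under median-of-ratios scaling the list had 1 higher and 0 lower in NCS, and 2 lower and 0 higher in ACS and in CCS. Of all 16185, 16636 and 16494 genes then tested, 2703, 3373 and 3001 were higher and 2690, 3599 and 3023 lower. FvH4_6g53870, actin related protein 2 of the ARP2/3 complex, was at 9.16 ± 0.344 RPKM in AH (SD, n = 3), and 7.20 ± 0.512, 6.27 ± 0.357 and 6.78 ± 0.231 in NCS, ACS and CCS, respectively. No description matched a further actin gene. A gene that only the PLAZA column calls Actin-4, FvH4_5g18941, had 91 reads over the 12 libraries and was not among the 6.

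The tubulin genes, which encode the subunits of microtubules, were lower more often than higher in all 3 comparisons with AH. Of 11 tested in NCS 8 were lower and 0 higher, of 11 in ACS 7 were lower and 0 higher, and of 12 in CCS 6 were lower and 1 higher. Of all genes tested 21.4, 20.9 and 13.9% were lower. Under median-of-ratios scaling 6 of 12, 7 of 11 and 7 of 12 were lower in NCS, ACS and CCS. Of all genes tested, 2690 of 16185, 3599 of 16636 and 3023 of 16494 were then lower. The tubulin medians without that scaling were -0.79, -0.67 and -0.25, where those of all genes were -0.07, 0.01 and 0.07. FvH4_2g38400, a tubulin beta-1 chain, fell from 47.9 ± 3.09 RPKM in AH (SD, n = 3) to 6.19 ± 0.219 in NCS and 13.8 ± 0.995 in CCS, with ACS in between. Its log2 fold changes were -2.93 (adjusted p = 2.63e-06 by limma) in NCS, -2.25 (4.95e-06) in ACS and -1.79 (2.03e-05) in CCS. FvH4_7g29550, a tubulin beta 8 gene, was at 5.52 ± 0.315 RPKM in AH and at 1.65 ± 0.0800, 2.45 ± 0.194 and 4.59 ± 0.123 in NCS, ACS and CCS. It was 1 of 7 tubulin genes, of 12 tested, that were higher in CCS than in ACS (log2 0.88, adjusted p = 0.000682 by limma), and 0 were lower. Of all genes tested in ACS vs. CCS, 18.4% were higher. The tubulin median was 0.26 there, and that of all genes was 0.07. Under median-of-ratios scaling the counts in that comparison were 4 higher and 0 lower, beside 1374 higher and 2055 lower of all 16535 genes tested.

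**Figure D4:**
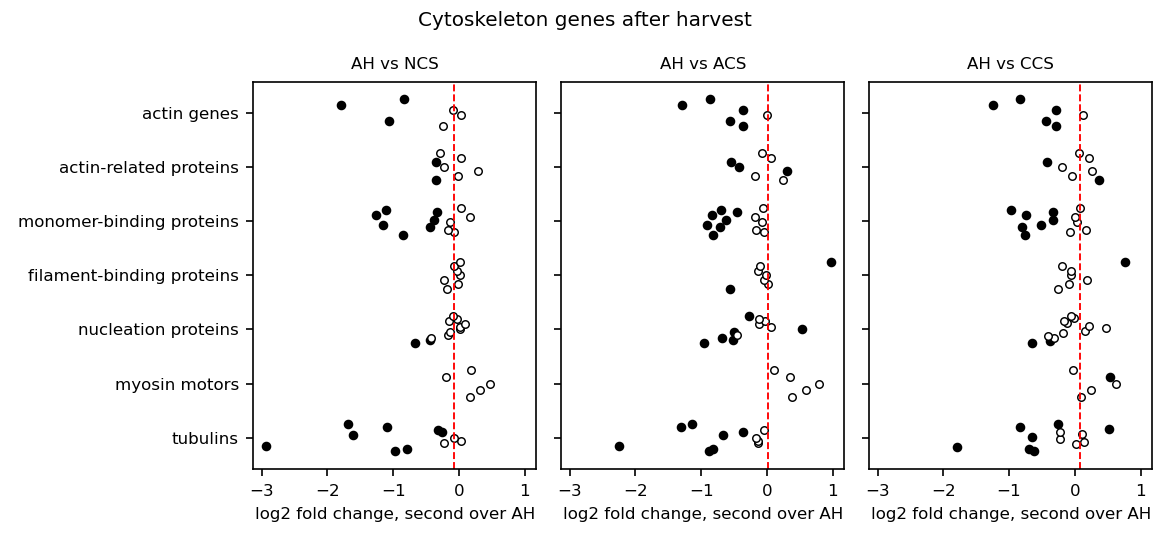
Log2 fold change against AH (horizontal axis, log2(RPKM + 0.1) scale) of every tested gene of the actin family and of 6 lists of cytoskeleton genes, in NCS, ACS and CCS. Each point is a gene, filled where it passed the test, and the dashed line is the median of all genes tested (-0.07, 0.01 and 0.07); filled points of monomer-binding proteins all lie below 0.

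The level of FvH4_7g22410 sets the zero point of a qPCR fold change. On the RNA-Seq values, the log2 fold change of each of the 32 other genes with qPCR primers was computed before and after subtracting that of FvH4_7g22410 in the same comparison. This is arithmetic on the RNA-Seq data, with no test, and no qPCR value was used. The filter on low values was not applied here, and some of the 32 genes lay below the pseudocount of 0.1 RPKM in AH. An example is FvH4_3g42900, cellulose synthase like E1, at 0 RPKM in AH. The median of the 32 genes moved from 1.66 to 2.49 in NCS, from 2.32 to 3.19 in ACS and from 1.38 to 2.22 in CCS. Genes below 0 went from 8 to 1 in NCS, from 8 to 2 in ACS and from 7 to 1 in CCS, and genes at 1.5 or more went from 18 to 22, from 20 to 24 and from 13 to 20. The NCS count includes FvH4_6g38980, a MATE efflux gene, at only 0.026 RPKM in AH and 0.016 in NCS. It moved from -0.11 to 0.72, and values at such levels are uncertain. FvH4_6g37210, an O-fucosyltransferase family gene, was at -0.63 in NCS and -0.74 in ACS before the subtraction and at 0.21 and 0.13 after it. FvH4_3g36410, expansin A4, a wall-loosening protein, stayed below 0 in NCS, at -2.56 before and -1.72 after. These genes were chosen after their values were seen.

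**Figure D5:**
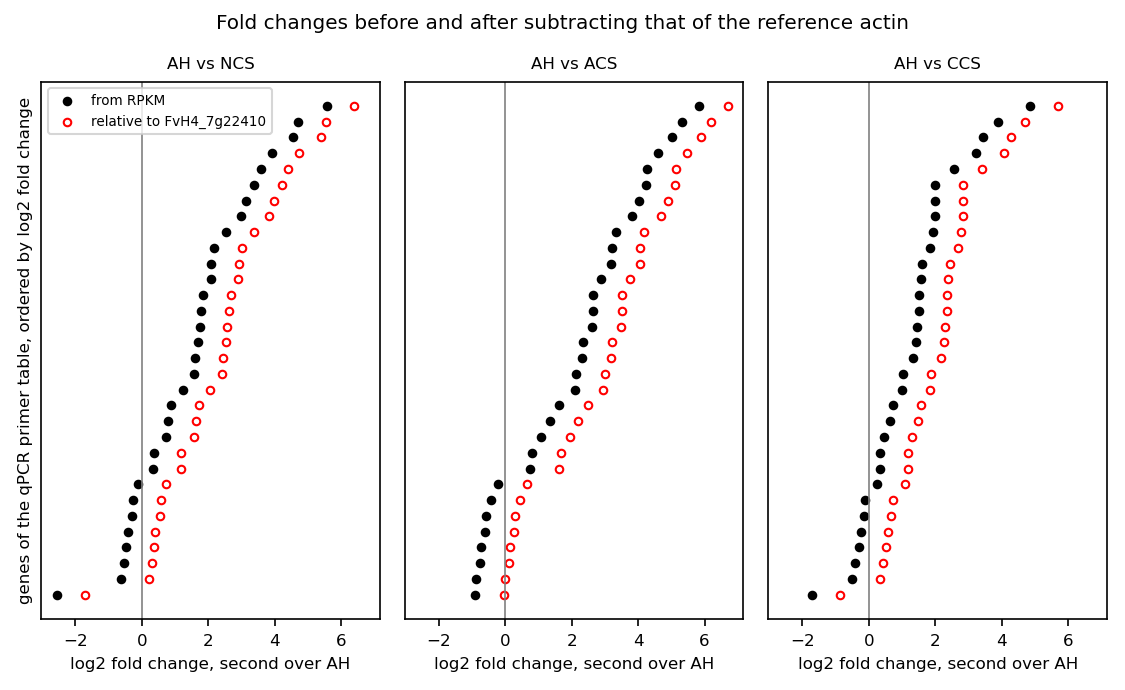
Log2 fold change against AH (horizontal axis) of the 32 genes with qPCR primers, without the filter on low values, ordered by value in each panel. Black points are from the RPKM values and red circles are the same values minus the log2 fold change of FvH4_7g22410 (-0.84, -0.87 and -0.84); between 6 and 7 genes per panel cross from below 0 to above 0.

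The same step was made for all genes by dividing each library by its level of FvH4_7g22410 or of FvH4_5g10190, which also adds the noise of the divisor to every gene. Division shifts all genes by the change of the divisor, so the counts describe the size of that shift and test nothing. Against AH they had to move for FvH4_7g22410 and had to move less for the steadier FvH4_5g10190. In AH vs. NCS 2367 genes were called higher and 3446 lower before division, 12982 and 677 after division by FvH4_7g22410, and 2183 and 3705 after division by FvH4_5g10190. Median-of-ratios scaling gave 2703 higher and 2690 lower. In AH vs. ACS the share of called genes that were higher was 51.2% before, 97.0% after division by FvH4_7g22410 and 50.2% after division by FvH4_5g10190. In AH vs. CCS it was 62.9% before, 97.6% and 47.5% after, and with median-of-ratios scaling it was 49.8%. DEGs that rose numbered 641, 1192 and 909 in NCS, ACS and CCS before division, and 1397, 2398 and 2121 after division by FvH4_7g22410. DEGs that fell went from 380 to 105, from 234 to 53 and from 191 to 45. Between ACS and CCS, where FvH4_7g22410 itself did not pass the test, 4 DEGs rose and 49 fell before division by it, and 4 rose and 51 fell after. FvH4_5g10190 was 0.12 higher in CCS than in ACS. Division by FvH4_5g10190 took the called genes in ACS vs. CCS from 3075 higher and 1718 lower to 961 and 2441. In NCS vs. CCS it took them from 6170 higher and 2294 lower to 4236 and 3130.

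Of genes of other families often used as references, most did not pass the test. Of 33 tested in NCS 8 were higher and 1 lower. Of 35 tested in ACS 9 were higher and 2 lower, and of 35 in CCS 8 were higher and 1 lower. Of all genes tested, 14.7, 21.9 and 23.6% were higher and 21.4, 20.9 and 13.9% lower, so the lower calls in this list lay below those shares. The medians of these reference genes, -0.03, 0.07 and 0.13, lay near those of all genes. A polyubiquitin 10 gene, FvH4_3g21853, rose from 39.7 ± 3.11 RPKM in AH (SD, n = 3) to 60.3 ± 1.30, 111 ± 0.836 and 102 ± 4.81 in NCS, ACS and CCS, respectively. FvH4_4g19630, a cyclophilin-like gene, rose from 22.7 ± 0.758 RPKM to 36.9 ± 0.735, 40.4 ± 0.523 and 44.0 ± 1.40. These went in the opposite direction to FvH4_7g22410.

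The genes most like each actin gene were taken by the root mean square difference of their centred log2 values over the 12 libraries, among 14368 described genes, as a description. FvH4_7g22410 was closest to FvH4_4g15700, an alpha/beta-hydrolase (0.0611), and to FvH4_3g33630, a tetraspanin (0.0613), where the median gene was at 0.436. FvH4_6g22300 was closest to FvH4_4g34470, a polygalacturonase 2 gene (0.0933), and to FvH4_6g32551, an acid phosphatase (0.110), with a median of 0.686. FvH4_4g34470, of the family of pectin-cutting enzymes, was at 237 RPKM in AH and at 61.2, 95.3 and 96.5 in NCS, ACS and CCS. FvH4_1g23490 was closest to FvH4_5g33560, a tubulin alpha-2 chain (0.0360), and to FvH4_5g16960, an ATP synthase subunit (0.0375). The steady FvH4_5g10190 was closest to FvH4_7g00912, ADP/ATP carrier 2, and to FvH4_7g00680, a G-patch domain gene, both at 0.0346. FvH4_6g13940 was closest to the aldolase superfamily gene FvH4_4g26450 (0.0326) and to FvH4_7g04850, ABA-responsive element binding protein 3 (0.0379). FvH4_3g35960 was closest to FvH4_1g05820, an integrase-type DNA-binding gene (0.104), and to FvH4_1g07980, a lactoylglutathione lyase (0.133).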

How the data were processed

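Total RNA of 12 fruit samples was sequenced as 4 conditions of 3 libraries, grouped by their labels. Per the labels and the methods, the authors trimmed adapters with Cutadapt 1.16.6, aligned reads with HISAT2 2.1.0 to the *Fragaria vesca* genome and computed the deposited RPKM values in SeqMonk from all reads per gene, corrected for library total and gene length, without using strand. The 6 deposited columns of the authors' own DESeq2 log2 fold changes were not used.

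Each of the 6 comparisons was fitted with limma 3.58.1 in R 4.3.3 (eBayes without trend) on log2(RPKM + 0.1), keeping genes that reached 0.5 RPKM in 3 or more of its 6 libraries, with Benjamini-Hochberg adjustment over all genes tested. The steps were tested on simulated data. Folds are second condition over first. The smallest p of an exact permutation test of 3 against 3 libraries is 0.1, and the p-values therefore rest on the limma model. Whole reads were recovered from the RPKM steps for 30993 of 30995 genes above 0, within 0.02 reads, and were used for depth and voom. Intervals cover the spread between libraries only.

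The actin genes and the lists were chosen with earlier results of these data known. All actin genes are named, with at most 3 genes per list (largest change against AH among called genes without overlap of libraries) and the 2 most similar described genes of each actin. Alternatives were a pseudocount of 1, no filter, all 12 libraries in one fit, median-of-ratios scaling, a replicate block, voom and leaving out each library. Division by an actin gene was added after seeing the data. Python 3.11.15 was used for the summaries.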

Additional observations from a re-analysis of the deposited data

How the results depend on the processing

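Of 432 alternative values of the actin log2 fold changes, 395 kept their direction and side of the threshold, 17 lost and 9 gained a call, and 11 turned sign while uncalled. The causes were not tested. Leaving out each replicate gave 2 to 5 actin genes called in AH vs. CCS, 3 to 4 in AH vs. NCS, 4 to 5 in AH vs. ACS, 3 in both comparisons of NCS with cold-stored fruit and 0 in ACS vs. CCS. These fits have fewer libraries. Median-of-ratios scaling called 5 genes in NCS vs. CCS and 4 in NCS vs. ACS in place of 3, and voom called 1 in ACS vs. CCS in place of 0. Same-numbered libraries did not deviate together in every pair of conditions (mean r from -0.19 in AH vs. ACS to 0.24 in ACS vs. CCS). These values do not settle whether the numbers pair the samples, and the main fits do not pair them. The fit with the replicate block called 3 genes in AH vs. CCS in place of 5 and left the other 5 counts as they were.

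The signs that turned all belonged to differences near 0. FvH4_5g10190 in AH vs. ACS was at -0.029 with median-of-ratios scaling and ranged from -0.00523 to 0.025 when single replicates were left out (below 0 without AH replicate 2, AH replicate 3 or ACS replicate 3), and with that scaling it was at -0.080 in NCS vs. CCS. Without single replicates FvH4_7g22410 ranged from -0.059 to 0.014 in NCS vs. ACS (above 0 without ACS replicate 2), from -0.0083 to 0.00204 in NCS vs. CCS (above 0 without NCS replicate 1 or CCS replicate 1) and from -0.016 to 0.056 in ACS vs. CCS (below 0 without ACS replicate 2), and with scaling it was at -0.043 in ACS vs. CCS. FvH4_6g22300 was at -0.023 in ACS vs. CCS with scaling. FvH4_1g23490 was called in AH vs. NCS with a pseudocount of 1 (adjusted p = 0.0309 by limma), all 12 libraries (0.00971) and voom (0.0252).

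Over all genes, division by FvH4_7g22410 gave 13659 called genes in AH vs. NCS, 14513 in AH vs. ACS, 14822 in AH vs. CCS and 2652 in ACS vs. CCS, against 5813, 7131, 6234 and 4793 without it. Median-of-ratios scaling moved the share of called genes that were higher from 64.4 to 47.3% in NCS vs. ACS, from 72.9 to 43.5% in NCS vs. CCS and from 64.2 to 40.1% in ACS vs. CCS. Depth limits FvH4_3g35960 most, at 179 to 807 reads per library.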
